A study of Sus scrofa with 8 samples.

Results

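Matricellular proteins are secreted into the extracellular matrix, where they bind cell-surface receptors, growth factors and proteases rather than bearing load. In the heart they are low in quiescent adult myocardium and are induced by injury, stretch and inflammation, mostly in fibroblasts but also in endothelial cells, smooth muscle cells, leukocytes, platelets and stressed myocytes. The genes described here are 10 such genes among the 14718 genes of the deposited table: the CCN family members CCN1, CCN2 and CCN5, the thrombospondins THBS1, THBS2, THBS4 and COMP, the collagen-binding protein SPARC, periostin (POSTN) and tenascin C (TNC). They were chosen by symbol, with earlier results of these data known, and all 10 were found. Genes were tested where 4 or more libraries reached a normalized count of 10, which kept 8 of the 10 among 11660 genes. COMP and CCN5 did not pass this filter.

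RNA of left ventricular tissue was sequenced from 8 pigs (Sus scrofa), 4 wild type (WT) and 4 gene-edited, to compare a long QT syndrome model with its controls. The edited gene is KCNH2, a potassium channel gene of cardiac repolarization, by the series design and the labels of mutant replicates 1 to 3. The genotype label of mutant replicate 4 reads KCNH3 instead. The labels name no allele, zygosity, breed, sex, age or litter. Each pig has its own number, so the p-values below measure the spread between these samples.

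Values are normalized counts, that is, reads of a gene after division by the size factor of the library, and 4 values of a group stand in the order of its replicates. Libraries held 15.9 to 22.4 M reads. Mitochondrially encoded genes took 31.7% to 87.9% of the reads of WT and 15.9% to 27.5% of those of mutant libraries. This left 2.53 M reads of nuclear genes to WT replicate 3, 7.53 M to WT replicate 4 and 11.5 to 16.2 M to the others. KCNH2 ranged from 148 to 1909 in WT pigs and from 798 to 1839 in mutant pigs, which checks no genotype, since a gene-level count does not show an edit. All 5 cardiomyocyte markers were read in every library, and their sum did not overlap between the groups, at 364181 to 454577 in WT pigs and 516593 to 622522 in mutant pigs. The authors' deposited table calls 2 of them higher, the myosin gene MYH7 and the calcium release channel gene RYR2 (adjusted p = 0.00161 and 0.0042). It calls 1.32% of its genes higher. In limma 3 of the 5 were higher and 2 lower, so the sum does not stand for each marker. The lower ones were the troponin genes TNNI3 (means of 108910 for WT and 69304 for mutant pigs) and TNNT2 (87472 and 70487). The cardiac actin gene ACTC1 had 1752 normalized counts in WT replicate 4 and 83137 to 168682 in the remaining WT pigs. The part of the cardiomyocyte markers in the differences below was not tested. The marker lists of non-myocyte cells differed widely among WT libraries. The summed level of 7 fibroblast markers was 37077, 7379, 97763 and 7146 in the WT pigs and between 24296 and 58757 in the mutant pigs. The globin gene HBB, a measure of blood in the tissue, stood at 15405, 27515, 27595 and 38.8 in the WT pigs and at 2086 to 2542 in the mutant pigs. In bulk tissue, fewer cells of a type and less RNA per cell cannot be told apart.

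CCN1, an immediate early gene whose product signals through integrins and heparan sulfate proteoglycans, showed the largest difference of the 8 tested genes. The 4 WT pigs had 4116, 4624, 5707 and 1011 normalized counts. The 4 mutant pigs had 1158, 678, 438 and 343. The first 3 WT libraries lay far above every mutant library, while WT replicate 4 lay below mutant replicate 1, so the groups overlapped at that one pair. The mean was 3864 ± 2015 for WT and 654 ± 364 for mutant pigs (SD, n = 4 each). The log2 difference, mutant minus WT on the log2(normalized count + 1) scale, was -2.46 ± 0.57 (SE; 95% interval -3.74 to -1.19), a level 5.51-fold lower. CCN1 ranked 96 of 11660 genes by p and did not pass over all genes (limma adjusted p = 0.197). CCN1 is called lower in the authors' deposited table, with a log2 fold change of -2.56 ± 0.55 (SE) and an adjusted p of 0.000671.

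The call of CCN1 depended on the test. On the recovered reads the adjusted p was 0.000672 with DESeq2 and 0.167 with edgeR's quasi-likelihood test. DESeq2 also called it lower in each of the 8 fits that left out 1 library, with log2 differences of -2.99 to -2.32. Without WT replicate 4 the limma difference was -3.02 (adjusted p = 0.102), and without mutant replicate 4, the library labelled KCNH3, it was -2.21 (adjusted p = 0.610). Within the mutant group CCN1 was ordered as the mitochondrial share of reads, which was 27.5%, 19.9%, 16.7% and 15.9% in replicates 1 to 4. This was not particular to CCN1. Within that group Pearson's r with the share was 0.97 for CCN1, 0.88 for THBS4 and 0.85 for CCN2. It was -0.97 for THBS1, -0.96 for SPARC, -0.91 for TNC, -0.79 for POSTN and -0.77 for THBS2. Over all 8 libraries the log2 level of CCN1 had a Pearson's r of 0.60 and a Spearman's rho of 0.83 with that share (r = 0.97 over the 6 libraries without WT replicates 3 and 4). CCN1 had an r of -0.76 and a rho of -0.74 with the score of 5 macrophage markers. With that of 4 platelet and erythroid markers it had 0.48 and 0.69. The macrophage relation was not particular to CCN1, since POSTN had -0.82 and -0.86 and TNC -0.75 and -0.71. The part of these measures in the CCN1 difference was not tested. Scaling each library to its reads of nuclear genes left the difference at -2.38.

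**Figure D1:**
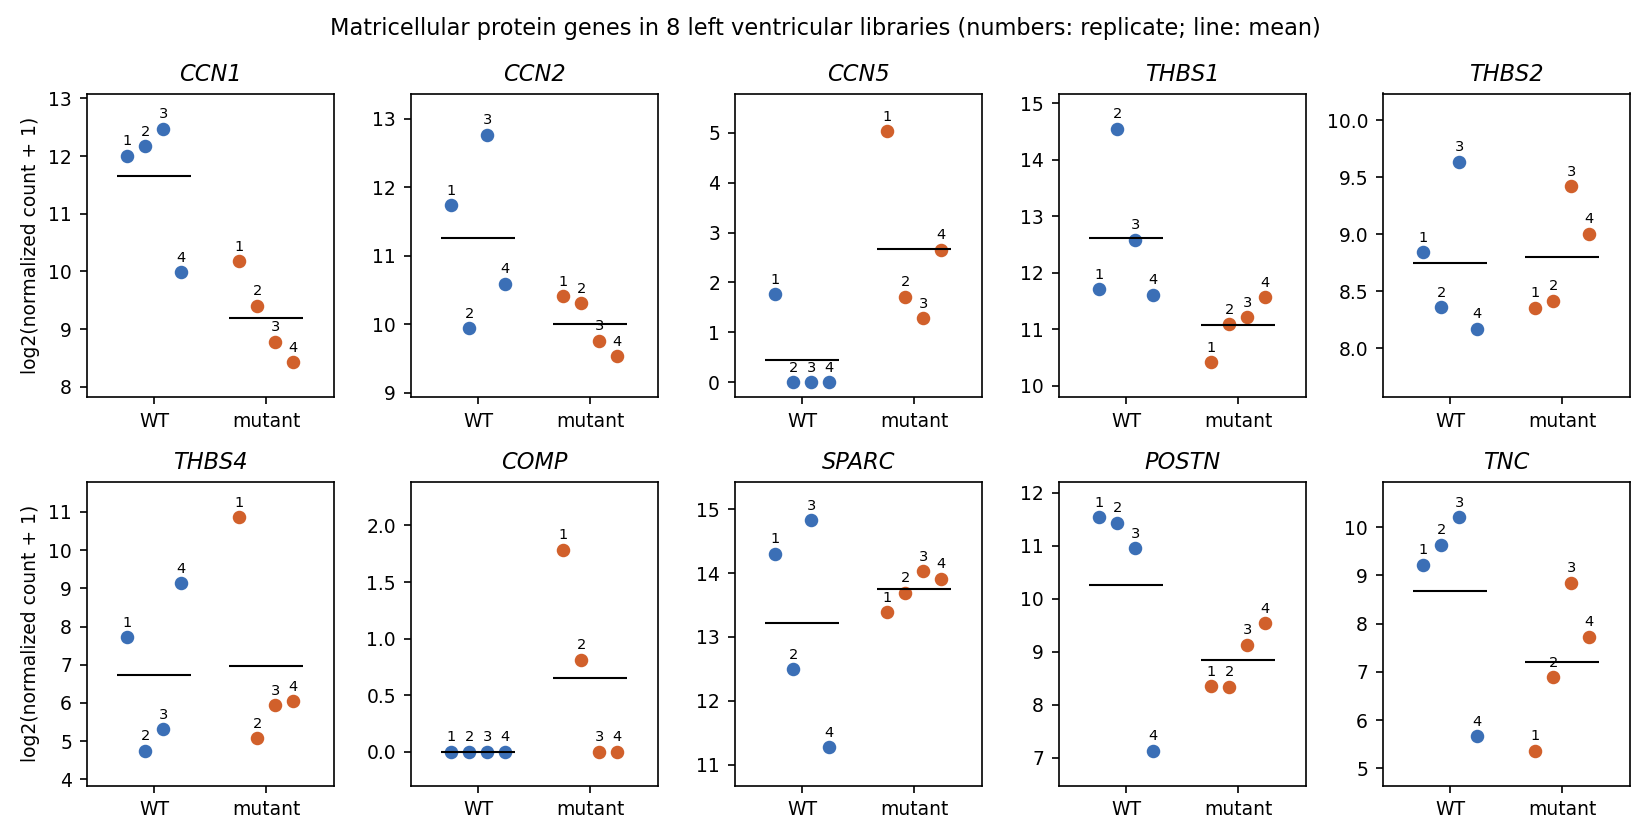
Level of each of the 10 genes as log2(normalized count + 1) on a vertical axis of its own, with 1 point per library, the replicate number beside it and a line at the group mean (blue WT, orange mutant). WT replicate 4 lies below the other WT libraries for CCN1, POSTN, TNC, SPARC, THBS1 and THBS2. THBS4, CCN5 and COMP are highest in mutant replicate 1.

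CCN2, known as connective tissue growth factor and widely used as a marker of profibrotic signalling, had 3424, 983, 6986 and 1539.6 normalized counts in the WT pigs. In the mutant pigs it had 1355, 1265, 867 and 740.3. WT replicates 1 and 3 were high, whereas WT replicate 2 lay inside the mutant range. The log2 difference was -1.26 ± 0.55 (SE; 95% interval -2.50 to -0.02; limma adjusted p = 0.349), and the authors' deposited table gives -1.61 (adjusted p = 0.0742). Leaving out WT replicate 3 gave a limma difference of -0.76, and leaving out WT replicate 2 gave -1.70. DESeq2 called CCN2 lower without WT replicate 2 (log2 difference -1.91, adjusted p = 0.00902) and without WT replicate 4 (-1.84, adjusted p = 0.0417), but not with all libraries. CCN2 followed the mitochondrial share as CCN1 did, with a Pearson's r of 0.79 and a Spearman's rho of 0.90 over 8 libraries (r = 0.71 over the 6 without WT replicates 3 and 4), and this was not tested as a cause either. The number of CCN1 reads per CCN2 read was 1.20, 4.70, 0.817 and 0.656 in the WT pigs and ranged from 0.463 to 0.854 in the mutant pigs. These ratios, which were not planned, overlapped between the groups. Only 0.0257% of 11659 genes had a ratio to CCN2 below that of every WT library in all 4 mutant libraries.

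CCN5, which lacks the C-terminal cystine knot domain of the other CCN proteins and is known to oppose CCN2 in fibrosis, was barely detected. WT replicate 1 had 3 reads and WT replicates 2 to 4 had 0, while mutant replicates 1 to 4 had 52, 3, 2 and 8 reads. The reads of the mutant group thus came mainly from replicate 1. A count of 0 allows up to 3 reads, so no fold change is given. The authors' deposited table lists a log2 fold change of 3.59 ± 1.70 (SE; adjusted p = 0.228).

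THBS1 encodes thrombospondin 1, a trimeric protein that activates latent TGF-β, binds CD36 and CD47 and is stored in platelets. The WT pigs had 3341, 24017, 6138 and 3123 normalized counts of it, and the mutant pigs had 1368, 2176, 2367 and 3039. The mutant values all lay below the WT values, but the gap was narrow: the lowest WT value was 1.03 times the highest mutant value. Of all genes tested, 5.22% had such a complete separation with mutant libraries lower, and THBS1 was the only one of the 8 tested genes to have it. The log2 difference was -1.54 ± 0.60 (SE; 95% interval -2.89 to -0.19; limma adjusted p = 0.315). In the authors' deposited table THBS1 is called lower, at -2.03 ± 0.63 (SE; adjusted p = 0.0378).

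WT replicate 2 stood apart for THBS1. Without it the limma difference was -0.89 (adjusted p = 0.298) and the DESeq2 difference -0.90 (adjusted p = 0.174). The DESeq2 call was also lost without any 1 of the mutant replicates 1 to 4 (adjusted p = 0.135, 0.0998, 0.132 and 0.0987), at differences of -2.21 to -1.85. Without WT replicate 3 DESeq2 gave THBS1 no adjusted p (difference -2.19), and the call was kept without WT replicate 1 or 4. The same library had the highest summed level of neutrophil markers, 979 normalized counts over the 2 measured of 4, whereas the remaining WT pigs had 38.8 to 58.1 and the mutant pigs 13.4 to 149. CXCR2 and S100A9, the other markers of that list, were not analysed here. The 4 measured of 5 platelet and erythroid markers summed to between 247 and 30953 in WT pigs, with the highest sum again in WT replicate 2. They summed to between 2499.5 and 2955 in mutant pigs. Most of the sum in WT replicate 2 came from the erythroid genes HBB (27515) and ALAS2 (3402), not from the platelet markers. The platelet markers went opposite ways. GP9 had 21, 3, 0 and 0 reads in the WT pigs and 12 to 53 in the mutant pigs. ITGA2B had 23.8, 33.7, 77.5 and 198 normalized counts in the WT pigs and 8.55 to 28.1 in the mutant pigs, and the authors' deposited table calls it lower (adjusted p = 0.0368). The part of these cells in the THBS1 values was not tested.

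THBS2, a trimeric relative known to restrain angiogenesis and matrix metalloproteinase activity, did not follow THBS1. Its normalized counts of 459, 327, 795 and 288 in WT pigs stood beside 327, 341, 684 and 514 in mutant pigs. The groups covered nearly the same range, and the log2 difference was 0.05 ± 0.38 (SE; 95% interval -0.79 to 0.89; limma adjusted p = 0.959). That interval leaves room for a difference of nearly 1 on the log2 scale either way. The number of THBS1 reads per THBS2 read was 7.29, 73.4, 7.73 and 10.9 in the WT pigs and between 3.46 and 6.38 in the mutant pigs. All 4 mutant ratios lay below all WT ratios, as was the case for 1.58% of genes set against THBS2. The ratio was not planned, and since THBS1 alone already separated the groups, it is no independent result. Such a ratio is free of the library's size factor, and gene length cancels when it is compared between libraries.

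THBS4 and COMP belong to the pentameric thrombospondins, of tendon and cartilage respectively, and THBS4 is also known from the stressed heart. THBS4 had 209, 25.9, 38.8 and 561 normalized counts in the WT pigs. In the mutant pigs it had 1866, 32.7, 60.1 and 64.9. A single library, mutant replicate 1, put the mutant mean above the WT mean, while the mutant median, 62.5, was below the WT median, 124. The log2 difference was 0.25 ± 1.35 (SE; 95% interval -2.77 to 3.27; limma adjusted p = 0.939), and without mutant replicate 1 it was -1.05. The authors' deposited table gives 1.28 ± 1.46 (SE) and no p-value for THBS4. COMP had 0 reads in all 4 WT libraries and 4, 1, 0 and 0 reads in mutant replicates 1 to 4. That is within the 3 reads a count of 0 allows in every library but mutant replicate 1. Its 4 reads were 2.44 normalized counts, less than the 4.84 that 1 read is worth in WT replicate 3. No difference between the groups is therefore read from COMP.

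SPARC (osteonectin) binds collagen and takes part in procollagen processing. Among WT pigs it had 20174, 5778, 29004 and 2476 normalized counts, and among mutant pigs 10720.1, 13238, 16683 and 15405. The mutant values were close together and lay between the low pair, WT replicates 2 and 4, and the high pair, WT replicates 1 and 3. The log2 difference was 0.53 ± 0.69 (SE; 95% interval -1.01 to 2.07; limma adjusted p = 0.725), whereas the authors' deposited table gives -0.04 (adjusted p = 0.982). Without WT replicate 4 the limma value was -0.12.

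SPARC and THBS2 followed the fibroblast markers from library to library. With the score of the 7 fibroblast markers, the mean of their centred log2 values, SPARC had a Pearson's r of 0.95 and a Spearman's rho of 0.90 over the 8 libraries. THBS2 had 0.86 and 0.95. Without WT replicates 2 and 4, the libraries farthest from the median score, r was 0.90 for SPARC and 0.93 for THBS2 over 6 libraries. Over all 8 libraries CCN1 did not share this pattern, at r = -0.08 and rho = -0.10 (r = 0.31 over those 6). The values for POSTN were 0.33 and 0.40 (r = 0.67 over those 6), and for TNC 0.44 and 0.50 (r = 0.90). For THBS1 they were -0.31 and 0.05 (r = 0.93 over those 6), so the relation of THBS1 turned on WT replicates 2 and 4. Within the mutant group alone r was 0.94 for POSTN, 0.92 for THBS1, 0.91 for TNC, -0.99 for CCN1 and -0.97 for CCN2. Within the WT group it was 0.53, -0.29, 0.64, 0.65 and 0.96 in that order. The libraries share a size factor across genes, and these correlations are descriptions only.

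**Figure D2:**
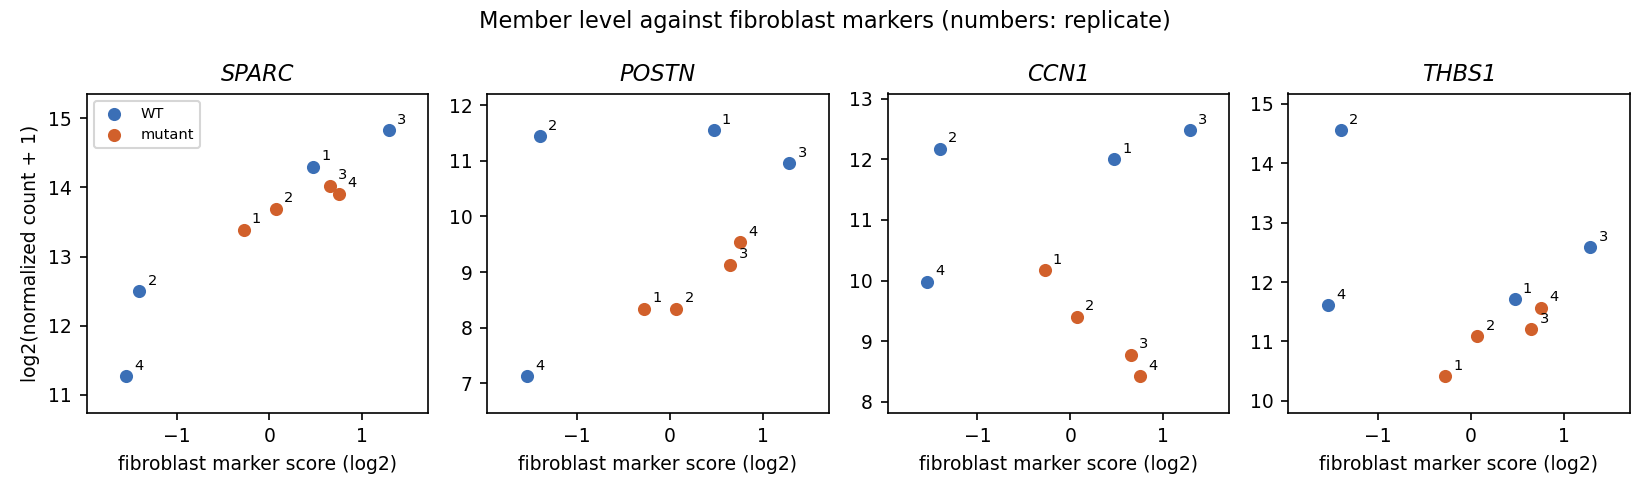
Level of SPARC, POSTN, CCN1 and THBS1 (vertical axes, log2 of normalized count + 1) against the fibroblast marker score (horizontal axis, mean centred log2 value of 7 genes), 1 numbered point per library (blue WT, orange mutant). SPARC lies along 1 line through both groups, while WT replicates 1 to 3 lie above the mutant libraries for POSTN and CCN1.

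POSTN encodes periostin, a fasciclin-domain protein that binds integrins and is a classical product of activated cardiac fibroblasts. POSTN stood at 2988, 2779, 1981 and 139.5 normalized counts in the WT pigs and at 324, 323, 561 and 744 in the mutant pigs. WT replicates 1 to 3 lay above all mutant libraries, and WT replicate 4 was the lowest of all 8. The log2 difference was -1.43 ± 0.88 (SE; 95% interval -3.40 to 0.55; limma adjusted p = 0.472), and the authors' deposited table gives -2.01 (adjusted p = 0.0682). WT replicate 4 decided this value: without it the limma difference was -2.47 (adjusted p = 0.102) and DESeq2 called POSTN lower (log2 difference -2.41, adjusted p = 5.73e-07). Without WT replicate 1 the limma difference was -1.002. POSTN had the same split of libraries as HBB, with WT replicates 1 to 3 high and WT replicate 4 lowest. It had a Pearson's r of 0.87 and a Spearman's rho of 0.83 with the score of the 4 platelet and erythroid markers, and -0.82 and -0.86 with that of the macrophage markers, over 8 libraries. With the score of 5 activated fibroblast markers POSTN had an r of 0.0028 and a rho of 0.26. The median log2 difference of those markers was 0.53, and their sum was 517 to 1897 in WT pigs and 486 to 1823 in mutant pigs. The part of these cells in the POSTN values was not tested.

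TNC encodes a hexameric glycoprotein that is nearly absent from normal adult myocardium and returns at sites of injury and inflammation. The WT pigs had 596, 796, 1182 and 49.7 normalized counts of TNC, and the mutant pigs 40.3, 118, 459.8 and 211. As for POSTN, WT replicates 1 to 3 lay above all mutant libraries, and WT replicate 4 was low. The log2 difference was -1.47 ± 1.02 (SE; 95% interval -3.75 to 0.81; limma adjusted p = 0.513). It was -2.48 without WT replicate 4, -0.97 without WT replicate 3 and -0.86 without mutant replicate 1. TNC was not called in any of the 29 alternatives. With the platelet and erythroid score it had an r of 0.72 and a rho of 0.76, which was not tested as a cause. With the activated fibroblast score r was -0.16 and rho -0.17.

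POSTN and TNC were also set against genes that mark fibroblast matrix in the same library. These ratios were chosen after the values of the single genes were seen. POSTN had 0.148, 0.481, 0.0683 and 0.0563 reads per SPARC read in the WT pigs and 0.0244 to 0.0483 in the mutant pigs, without overlap, as was the case for 1.36% of genes set against SPARC. TNC had 0.0422, 0.523, 0.0489 and 0.149 reads per read of the collagen gene COL1A1 in the WT pigs and 0.0101 to 0.0191 in the mutant pigs. The groups again did not overlap, as for 0.506% of genes set against COL1A1. The ratio of POSTN to COL1A1 did overlap, with 0.0819 in WT replicate 3 and 0.0843 in mutant replicate 1.

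**Figure D3:**
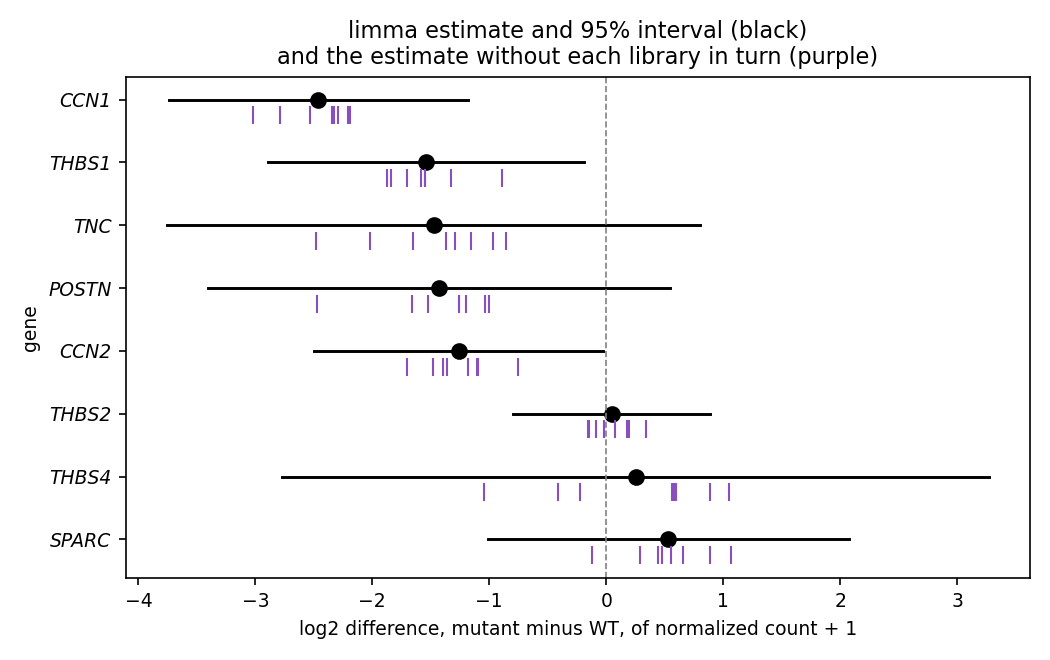
limma log2 difference, mutant minus WT (horizontal axis), of the 8 tested genes (vertical axis) as a black point with its 95% interval, and the same difference without each library in turn as purple ticks. The 5 genes CCN1, THBS1, TNC, POSTN and CCN2 stay below 0 in every such fit, whereas the ticks of THBS2, THBS4 and SPARC fall on both sides of 0.

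Over the 8 tested genes, 5 were lower and 3 higher in mutant libraries, with a median log2 difference of -1.34. The median over all genes tested was 0.12, and 43.1% of them were below 0. None of the 8 passed limma after adjustment over all genes, where 0% of genes passed. An unadjusted limma p under 0.05 was reached by 3 of them, CCN1, THBS1 and CCN2, all lower, against 6.80% of all genes in that direction. The authors' deposited table gives an adjusted p to another set of 8 of the 10 genes, with CCN5 and without THBS4 and COMP. It calls 2 of these lower, CCN1 and THBS1, against 3.23% of its genes. DESeq2 on the recovered reads called the same 2 genes, against 3.24%. The set was chosen with earlier results of these data known, so these medians and shares describe it and test nothing. Without both WT replicates 3 and 4, the libraries with the highest mitochondrial share, the limma median was -1.45, and CCN1 and POSTN had adjusted p of 0.0895 and 0.0657.

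The WT group was the more variable one. The SD of log2 values was larger in WT than in mutant libraries for 7 of the 8 genes, which is the case for 84.3% of all genes tested. It was 1.64 against 0.28 for SPARC and 2.11 against 0.60 for POSTN. THBS4 was the exception, with 2.06 in WT and 2.63 in mutant libraries. Within both groups the 8 genes had a larger median SD than all genes tested, 1.501 against 0.70 in WT and 0.55 against 0.33 in mutant libraries.

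The tested genes formed small sets by their pattern over the 8 libraries. Of 28 pairs, POSTN with TNC had the highest Pearson's r, 0.89 (Spearman's rho 0.81), and it was 0.86 for deviations from the group means. SPARC with THBS2 came next at 0.79 (rho 0.90; 0.80 within groups), then CCN1 with CCN2 at 0.73 (rho 0.74; 0.51 within groups). THBS4 ran against most of the others, from -0.72 with TNC to 0.02 with CCN2. THBS1 with THBS2 had an r of 0.01.

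**Figure D4:**
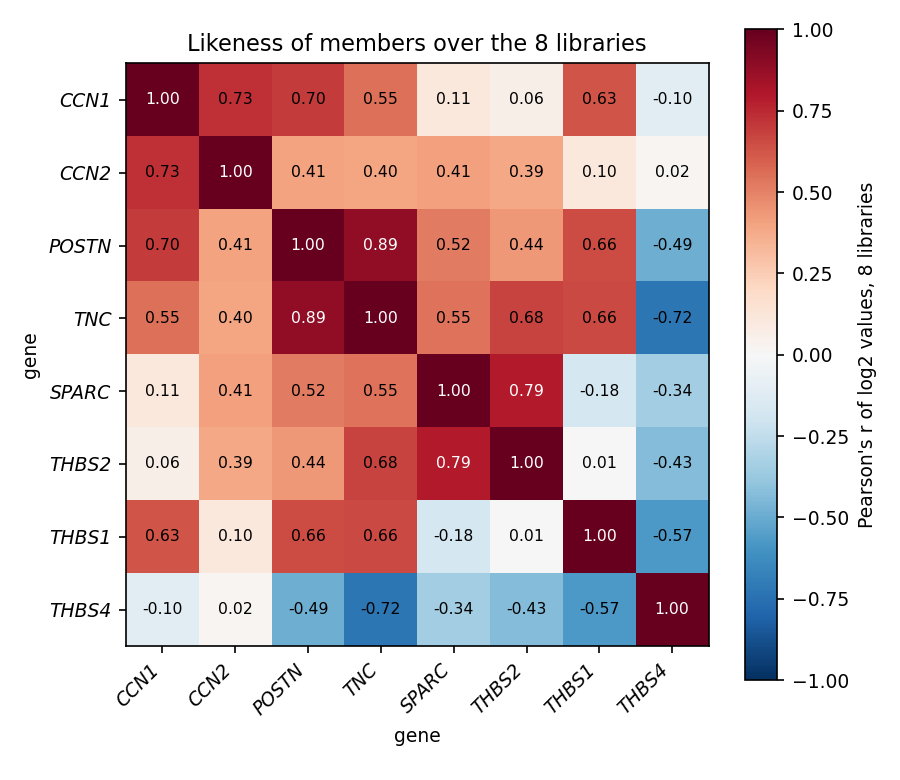
Pearson's r of log2(normalized count + 1) over the 8 libraries for each pair of the 8 tested genes (both axes), red for positive and blue for negative values. POSTN with TNC (0.89) and SPARC with THBS2 (0.79) are the most alike, and THBS4 with TNC (-0.72) the least.

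Among 10121 genes with a mean of at least 50, the 5 most like CCN1 over the 8 libraries were MED4, TRABD, DUSP5, RHBDF1 and EGR1, with Pearson's r of 0.94 to 0.95. DUSP5, a nuclear phosphatase of ERK, had a mean of 559 normalized counts for WT and 58.3 for mutant pigs. EGR1, an immediate early zinc finger transcription factor, had 2306 and 735. MED4, TRABD and RHBDF1 differed less, with log2 differences of -0.40, -0.53 and -0.81. The 5 most like CCN2 were EXOSC9, HPRT1, GPI, ARPC1A and TRDMT1 (r of 0.94 to 0.96). For THBS1 they were RDH10, STX11, NFKBIB, NELFCD and UBE2J2 (0.95 to 0.98). For POSTN they were RNF2, UBE2D2, TUBB6, ARF4 and ESF1 (0.93 to 0.98). None of these 4 genes had another of the 10 among its 5 closest.

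Other matricellular genes did not share 1 direction. Of 17 relatives 14 were tested, 7 higher and 7 lower, with a median log2 difference of -0.02, and none passed limma (adjusted p of 0.206 to 0.984). SPP1, which encodes the cytokine-like matrix protein osteopontin, averaged 382 ± 243 normalized counts in WT and 73.7 ± 20.1 in mutant pigs (SD, n = 4 each) and did not overlap (log2 difference -2.14 ± 0.52, SE). SPOCK1, which encodes the proteoglycan testican 1, did not overlap either (-2.48 ± 0.87, SE). Such a separation with mutant libraries lower was found for 5.22% of all genes tested. The authors' deposited table calls SPP1 and SPOCK1 lower, with adjusted p of 0.000878 and 0.00707, and no other relative. It calls 3.23% of its genes lower. SMOC1, of the SPARC family, had a difference of -1.84 ± 0.74 (SE), and the pentameric thrombospondin gene THBS3 had 1.15 ± 0.61 (SE).

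The remaining CCN genes are given to complete the family, a choice made after their values were seen. CCN4 had 67.5, 142, 165 and 0 normalized counts in the WT pigs and 0, 8.35, 12.9 and 7.95 in the mutant pigs. WT replicates 1 to 3 lay above all mutant libraries and WT replicate 4 did not, as for CCN1, POSTN and TNC. CCN3 went the other way in its means, 215 ± 154 for WT and 417 ± 233 for mutant pigs (SD, n = 4 each), with overlapping groups. CCN6 stayed at 14.6 normalized counts or below in every library.

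Of 17 genes for receptors of matricellular proteins 14 were tested, 11 higher and 3 lower, with a median of 0.34 and no call in limma (adjusted p of 0.235 to 0.958). ITGA6, the α6 integrin subunit that binds laminin and CCN1, averaged 329 ± 220 normalized counts in WT and 1105 ± 395 in mutant pigs (SD, n = 4 each). Its groups did not overlap, as for 6.17% of genes with mutant libraries higher, and the authors' deposited table calls it higher (adjusted p = 0.0499), as it does 1.32% of its genes. The differences of ITGA9, a receptor subunit for tenascin C and osteopontin, of the leukocyte subunit ITGAM, and of ITGB5, a periostin receptor subunit, were 0.57 ± 0.32, 2.21 ± 1.26 and 0.56 ± 0.37 (SE).

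Proteases and crosslinkers of the matrix were lower in 8 of 10 genes, with a median of -0.16 and no call in limma or in the authors' deposited table. The urokinase gene PLAU had a log2 difference of -0.99 ± 0.40 (SE), and ADAMTS1 one of -0.75 ± 0.33 (SE). ADAMTS4, a protease of proteoglycans, reached 10545 normalized counts in WT replicate 2, whereas the remaining WT pigs had 120.1 to 729 and the mutant pigs 28.1 to 305. It was thus highest in the same library as THBS1. ADAMTS7, which cleaves COMP, had a difference of 0.86 ± 0.54 (SE).

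Genes regulated by YAP and TEAD, the transcription regulators for which CCN1 and CCN2 are textbook targets, were as often higher as lower. Of 20 genes 18 were tested, 9 higher and 9 lower, with a median of -0.00098 and none called in limma (adjusted p of 0.228 to 0.966). FJX1 was lower without overlap (-1.82 ± 0.51, SE), and the authors' deposited table calls it (adjusted p = 0.00622). DOCK5 was higher without overlap (1.43 ± 0.48, SE), CRIM1 had 0.99 ± 0.46 (SE), and the growth factor carrier gene IGFBP3 had -1.09 ± 0.50 (SE). Of the 18 targets 1 was thus lower and 1 higher without overlap, near the 5.22% and 6.17% of all genes tested. Of the regulators of this pathway and of the serum response factor 9 of 10 were tested, 6 higher and 3 lower, with a median of 0.43. TEAD1 was higher (277 ± 172 normalized counts for WT, 749.9 ± 174 for mutant pigs; SD, n = 4 each) and TEAD3 lower (869.6 ± 365 and 399 ± 48.2; SD, n = 4 each), both without overlap. Neither passed limma, and the authors' deposited table calls both, with adjusted p of 0.0368 and 0.0405. It calls 1.32% of its genes higher and 3.23% lower. MYOCD and TEAD4 had differences of 1.11 ± 0.59 and -0.54 ± 0.32 (SE).

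**Figure D5:**
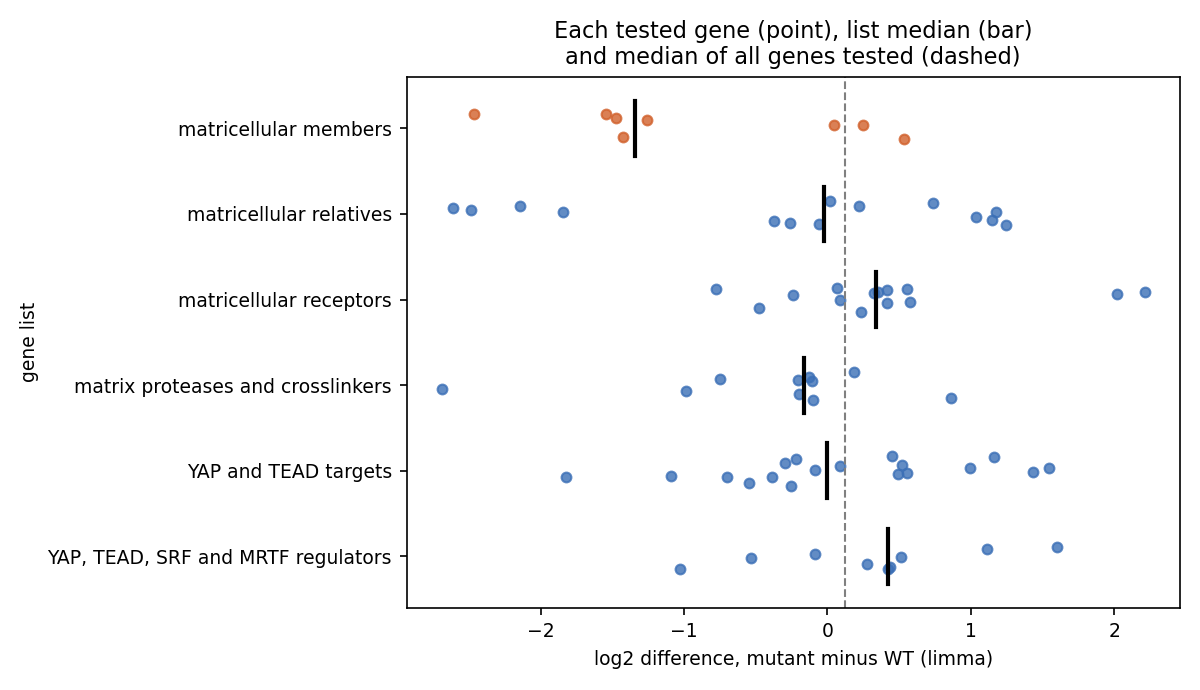
limma log2 difference, mutant minus WT (horizontal axis), of each tested gene (point) in the matricellular set (orange) and 5 related lists (blue), with a bar at each list's median and a dashed line at the median of all genes tested. The matricellular set has its median at -1.34, and the medians of the other lists lie between -0.16 and 0.43. All these lists were chosen with earlier results of these data known, so the medians are descriptions only.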

How the data were processed

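Polyadenylated RNA was sequenced from left ventricles of 8 pigs, per the labels' protocols. The authors deposited 1 table with normalized counts (signal) per gene and library and their own comparison per gene (a mean, a log2 fold change with its error, a Wald score, and raw and adjusted p-values), per the file headers. The submitters' processing notes name DESeq2 and the build GRCh38, a human assembly, and no coordinates are printed. The aligner, counter, annotation and strand setting were not given in the sources used here.

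All values were whole multiples of 1 read (100% within 1e-06 reads), so reads were recovered. Of 14720 rows, 2 carry the name of an annotation database in place of a gene (0.392% to 0.853% of reads) and were left out. limma 3.58.1 (trended, robust prior, R 4.3.3) was fitted over 11660 genes on log2(normalized count + 1), which understates changes of low genes. Benjamini-Hochberg adjusted p under 0.05 was called. DESeq2 1.42.0 called 582 genes and edgeR 4.0.16 none on the recovered reads. Each fit was tested on simulated data with the same spread in both groups. The groups here differ in spread, so that test does not decide between the fits. Members, lists and named genes (all members, and up to 4 of each related list by p) were chosen with earlier results of these data known. Marker lists are described by summed normalized counts and by scores, the mean of their centred log2 values. Alternatives were other scalings, pseudocounts, filters, priors, weights and libraries left out. Fits of DESeq2 without libraries and the genes most like THBS4 were added after the data were seen.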

Additional observations from a re-analysis of the deposited data

Results flagged for a closer look

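Of 19 sets of 4 libraries checked for a value far from the rest, 4 had one. The limit used assumes normally distributed values, whereas these normalized counts were not put on the log2 scale. How many such values chance would give is therefore not stated. THBS1 was at 24017 normalized counts in WT replicate 2, against 6138 in the next WT library. THBS4 was at 1866 in mutant replicate 1, against 64.9 in the next. CCN5 was at 31.8 in mutant replicate 1, against 5.30 in the next. CCN5 in WT replicate 1 was at 2.38, or 3 reads, where the other WT libraries had 0. With the other values at 0 any read there stands apart, so this case carries no weight.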

How the results depend on the processing

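No paired analysis was possible because each pig has its own number and the labels name no litter or pairing. CCN1, CCN2, POSTN, TNC and THBS1 kept a difference below 0 in all 29 alternatives. The CCN1 difference ranged from -3.13 to -2.19 and was called in 11 of the 29, namely all 10 DESeq2 fits and limma with array quality weights (adjusted p = 0.0147). Genes called numbered 0 with limma and with edgeR (1616 and 1753 at an unadjusted p under 0.05), 582 with DESeq2, 3 after quantile normalization, 92 with array quality weights and 12 without both WT replicates 3 and 4. They numbered 0 to 3 without each library in limma, and in DESeq2 1027, 705, 588 and 510 without WT replicates 1 to 4 in turn, 333, 370, 173 and 128 without mutant replicates 1 to 4 in turn, and 705 without both WT replicates 3 and 4. Members called numbered 0 with limma, 2 with DESeq2, 1 with array quality weights, 1 to 4 in DESeq2 without each library and 3 without both WT replicates 3 and 4.

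The other 3 genes changed sign. SPARC was at -0.035 with DESeq2, -0.015 with edgeR and -0.12 in limma without WT replicate 4 (up to 1.06 without WT replicate 3). In DESeq2 it was -0.29, -0.38, -0.0056, -0.13 and -0.084 without WT replicates 2 and 4 and mutant replicates 2, 3 and 4 in turn. THBS2 was at -0.08, -0.15, -0.16 and -0.02 in limma without WT replicates 2 and 4 and mutant replicates 3 and 4 in turn (up to 0.34 without WT replicate 3), and at -0.12, -0.16, -0.23 and -0.042 in DESeq2. THBS4 was at -0.40 with array quality weights, at -0.41, -0.22 and -1.05 in limma without WT replicates 2 and 3 and mutant replicate 1 (up to 1.05 without WT replicate 4), and at -1.998 in DESeq2 without mutant replicate 1. With a minimum of 100 normalized counts THBS4 was not tested. The causes were not tested. The median of all genes was 0.12 in limma, 0.20 after scaling to nuclear reads and -0.03 in DESeq2. Depth limits COMP and CCN5, and WT replicate 3, where 1 read is worth 4.84 normalized counts.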

Other observations

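Mutant replicate 1 held the highest THBS4, CCN5 and COMP values of all libraries, with 1866 normalized counts, 52 reads and 4 reads. CILP, a cartilage matrix gene on the activated fibroblast list, was also highest there, at 695, followed by 553 and 427 in WT replicates 4 and 1, the libraries next highest for THBS4. The 5 genes most like THBS4 over the 8 libraries were ABCA2, MAPRE2, SLC44A1, CKM and PLPP1 (Pearson's r of 0.95 to 0.99), and the order of the libraries was the same for THBS4 and the muscle creatine kinase gene CKM (Spearman's rho 1). THBS4 and CILP were singled out after their values were seen.

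The score of 5 endothelial markers had a Pearson's r of 0.80 and a Spearman's rho of 0.95 with THBS4, and -0.82 and -0.74 with TNC. This was not particular to TNC, since THBS1 had -0.82 and -0.45 and POSTN -0.77 and -0.45. The summed level of these markers was 4581 to 21316 normalized counts in WT and 10082 to 16057 in mutant libraries.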
